A study of Homo sapiens with 40 samples.

Results

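The small nuclear RNA (snRNA) genes were selected on their measured level: a gene of type snRNA in the total RNA table was a member when it reached 1 TPM (reads per gene length, scaled to the same total in each library) in at least 2 of the 36 libraries. This left 190 of 1900 annotated snRNA genes. Samples came from wild-type H1 cells, a long-established line of human embryonic stem cells. Day 0 cells were undifferentiated; the others had gone through 3 or 5 days of mesoderm differentiation, with BMP4 for 1 day and bFGF afterwards. Cells of each day were separated in turn into a cytoplasmic (CE), a membrane (ME), a soluble nuclear (SNE) and a chromatin-bound nuclear extract released with micrococcal nuclease (CBNE), and an extract of the remaining pellet (PE), beside unfractionated RNA (INPUT), with 2 libraries in each of the 18 groups. PolyA RNA of day 0 cells came from nucleus and cytoplasm, 2 libraries each. All samples are of this 1 cell line, and no label says whether the 2 libraries of a group came from separate cultures. The p-values therefore measure spread between libraries of a group, which may be technical. In total RNA this spread was pooled over all 18 groups, CBNE and PE among them, and not taken from the compared groups alone.

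Small nuclear RNAs are short RNAs, mostly without a polyA tail, that work as ribonucleoprotein particles (snRNPs). U1 pairs with the start of an intron and U2 with its branch point, and U4, U5 and U6 join them as a complex to form the major spliceosome. U11, U12, U4atac and U6atac do the same work on a rare class of introns (the minor spliceosome), and U7 directs the 3′ end cleavage of histone transcripts. RNA polymerase II makes all of these except U6 and U6atac, which RNA polymerase III makes. The polymerase II snRNAs pass through the cytoplasm, where a ring of Sm proteins is put on them, and return to the nucleus, whereas U6 carries an LSm ring and is held to stay nuclear. The human genome also carries many copies of these genes, most of them named as pseudogenes with a P in the symbol.

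The sequences of 9 members follow in the DNA alphabet, as GENCODE 29 transcripts on GRCh38, because the results turn on how far a copy differs from its family gene. In the U1 genes the capitals mark ACTTACCT, the bases that pair with the start of an intron. They stood at positions 3 to 10, counted from 1 at the 5′ end, in all 4 U1 sequences below that hold them. RNVU1-15 lacked them because of the substitution C9T against RNU1-1. In U6 the capitals mark ACAGAGA, the box that pairs with the same splice site, and in U4 they mark the Sm site (ATTTTTG). RNU1-1 lies at chr1:16514122-16514285 on the minus strand, and RNVU1-27, RNVU1-19, RNVU1-15 and RNVU1-6 are U1 variant genes at chr1:148522601-148522765 (plus), chr1:120850819-120850985 (minus), chr1:144412576-144412740 (plus) and chr1:146052081-146052244 (minus). RNU4-1 lies at chr12:120293097-120293237 (minus). The U6 copies RNU6-705P, RNU6-1246P and RNU6-367P lie at chr5:181301967-181302070 (plus), chr1:72717663-72717769 (minus) and chr3:44071087-44071186 (plus), and none of these 3 overlaps another gene.
RNU1-1: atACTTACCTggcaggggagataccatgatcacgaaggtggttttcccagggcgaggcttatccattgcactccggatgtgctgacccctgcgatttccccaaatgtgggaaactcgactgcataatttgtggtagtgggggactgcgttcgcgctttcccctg
RNVU1-27: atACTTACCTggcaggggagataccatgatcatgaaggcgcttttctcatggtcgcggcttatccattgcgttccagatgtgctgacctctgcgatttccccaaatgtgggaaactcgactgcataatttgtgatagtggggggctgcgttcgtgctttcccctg
RNVU1-19: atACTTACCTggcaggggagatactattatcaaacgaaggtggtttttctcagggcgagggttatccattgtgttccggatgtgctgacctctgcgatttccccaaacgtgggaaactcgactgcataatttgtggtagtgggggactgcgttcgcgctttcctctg
RNVU1-15: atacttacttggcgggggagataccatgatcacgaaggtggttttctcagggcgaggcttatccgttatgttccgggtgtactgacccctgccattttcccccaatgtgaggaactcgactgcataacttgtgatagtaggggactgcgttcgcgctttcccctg
RNVU1-6: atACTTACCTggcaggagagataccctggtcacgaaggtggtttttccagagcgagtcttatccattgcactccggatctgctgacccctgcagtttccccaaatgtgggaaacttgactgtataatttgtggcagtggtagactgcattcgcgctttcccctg
RNU4-1: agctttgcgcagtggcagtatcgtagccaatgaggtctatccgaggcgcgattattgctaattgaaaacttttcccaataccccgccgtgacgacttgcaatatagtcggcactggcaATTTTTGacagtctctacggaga
RNU6-705P: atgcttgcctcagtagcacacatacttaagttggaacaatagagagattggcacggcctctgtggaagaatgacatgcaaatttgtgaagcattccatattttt
RNU6-1246P: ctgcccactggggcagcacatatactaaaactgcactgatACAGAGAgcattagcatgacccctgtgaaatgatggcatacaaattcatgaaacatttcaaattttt
RNU6-367P: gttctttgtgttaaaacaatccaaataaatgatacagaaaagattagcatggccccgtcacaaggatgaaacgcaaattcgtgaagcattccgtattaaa

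The values that chose the members were low for most of them. A TPM value divides reads by gene length, and on 107 bases, the length of U6, 1 read equalled 6.61 to 17.0 TPM in the CE, ME, SNE and INPUT libraries, 31.5 to 288 TPM in PE and 129 to 578 TPM in CBNE. For these short genes the 1 TPM threshold therefore meant a single read in each of 2 libraries, and for all 190 members the libraries above 0 were also those at 1 TPM. Of the members, 37 were just inside the rule with 2 or 3 reads in exactly 2 libraries. Just outside it were 110 genes seen in a single library, 105 of them with 1 read, and 1600 genes were listed at 0 throughout. A member seen in 2 libraries of the same extract passed through that extract, so counts over all members describe the list and support no difference on their own.

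Reads were concentrated in the U1 variant genes. The members held 9152 reads over the 36 libraries with a median of 7 per gene; 57 genes had at least 20 reads, and the 10 with the most reads held 4511, or 49.3%. The 11 U1 variant genes (RNVU1 symbols), of 26 annotated, held 4167 reads (45.5%). The 158 copies with a P symbol, of 1778, held 3434 reads (37.5%). The 15 RNU genes without a P, of 23, held 1471 reads (16.1%), and 6 copies named by family or clone held 80. RNU2-1, RNU1-2, RNU1-4, RNU7-1, RNU4ATAC and RNU12, the family genes of U2, U1, U7 and the minor spliceosome, were listed at 0 in every library, so U2 and U7 are represented here by copies.

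By family, U6 had the most members, 119 with 2352 reads, of which 113 were P copies with 2166 reads. U1 had 22 members and 4703 reads, U5 had 7 and 979, U4 had 8 and 504, U2 had 12 and 436, and U7 had 11 and 111. The major spliceosome took 168 members and 8974 reads. The minor spliceosome took 10 members and 61 reads. Its only member without a P symbol was RNU11, the U11 snRNA, with 13 reads in 8 libraries.

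Reads were given to genes over a wide range of identity to the family gene. Among the U1 members, RNU1-1 and RNU1-3 had 39 and 31 reads, whereas RNVU1-27, 92.1% identical to RNU1-1, had 929, RNVU1-19 had 601 and RNVU1-15 had 564. Of the 8 annotated genes that carry the RNU1-1 sequence letter for letter 6 were members, and their reads ran over a range of 14.1 times, up to 437 in RNVU1-29. Reads of identical genes cannot be assigned from their sequence, so the split among these 6 (1049 reads together) is uncertain. The same holds for the 5 members with the RNU6-1 sequence (116 reads), among them RNU6-2 with 88. The U6 copies with the most reads were distant from it: RNU6-705P was 80.4% identical with 390 reads, and RNU6-1246P was 78.5% identical with 241 reads.

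**Figure D1:**
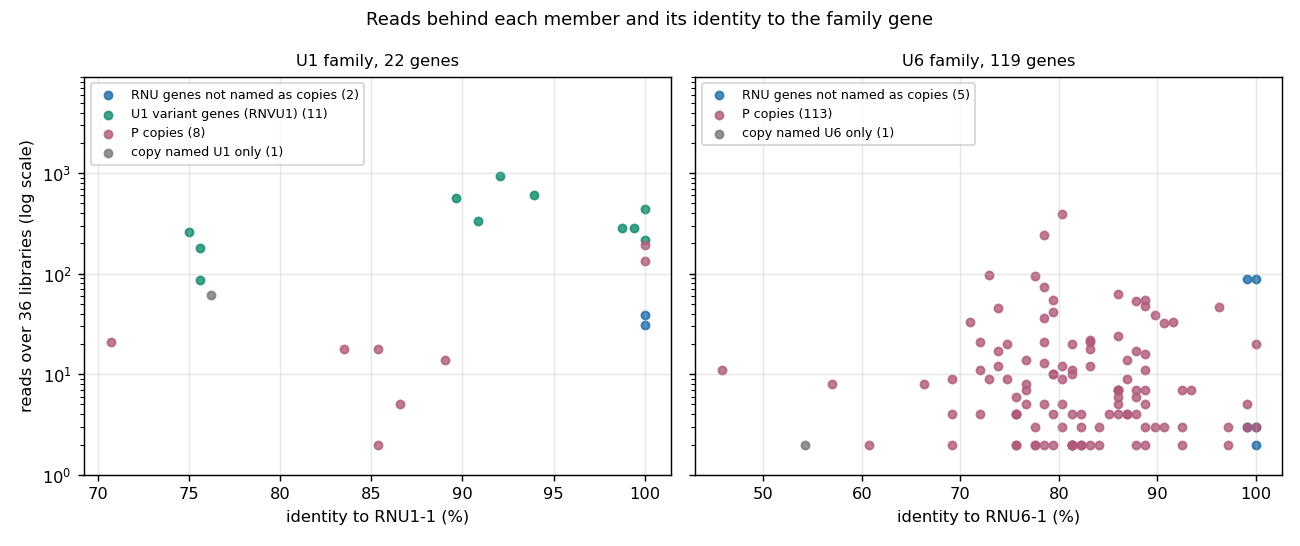
Reads of each U1 member (left, 22 genes) and U6 member (right, 119 genes) over the 36 libraries, on a log axis, against the identity of its sequence to RNU1-1 or RNU6-1 in percent. Points are genes, coloured by class; RNVU1-27, at 92.1% identity and 929 reads, is the highest U1 point, and RNU6-705P, at 80.4% and 390 reads, the highest U6 point.

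The marked motifs were found in members and in genes outside the list. ACTTACCT was present in both RNU1 genes, in 7 of the 11 U1 variant members against 5 of the 15 other U1 variant genes, and in 4 of 8 U1 P copies against 32 of the 104 others. On the gene strand, 2.84% of all snRNA genes held it. ACAGAGA was present in 66 of the 113 U6 P copies that were members and in 620 of the 1158 others, and 37.4% of all snRNA genes held it.

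Membership varied with the position of the gene. None of the 600 snRNA genes inside an intron of a gene on the same strand was a member, and 1 of them had a value above 0 in any library. Of the 477 in an intron on the opposite strand 41 were members (8.60%), and of the 749 that overlap no other gene 142 were (19.0%). In polyA RNA none of the same 600 genes had a read, against 5 of the 477 and 117 of the 749. The total RNA table also listed SOX2, a pluripotency factor gene, and RMRP at 0 in all libraries, genes that embryonic stem cells are known to use. How the reads of overlapping genes were assigned is not given in the sources used here, and its part in this pattern was not tested.

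Among P copies that overlap no gene, 34 of 119 members (28.6%) had an expressed gene (mean of at least 1 TPM) ending within 10 kb upstream on the same strand, against 14 of 583 non-members (2.40%). The median distance to the nearest upstream gene of any level was 21389 bases for the members. For the others it was 73933 bases. All 11 U1 variant members lie on chromosome 1, which holds 32 of the 190 members.

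The extracts differed in depth and in what filled them. Gene reads rebuilt from the TPM values came to 19.7 to 28.5 M in SNE, 8.60 to 15.5 in ME, 12.8 to 21.9 in CE and 14.3 to 21.8 in INPUT, but 0.474 to 7.86 M in PE and 0.380 to 1.84 M in CBNE. GAPDH, RPL15 and RPS3A were highest in CE, MT-ND1, MT-ND2 and MT-CYB in ME, and MALAT1, NEAT1 and KCNQ1OT1 in SNE. SNORD3A, the U3 small nucleolar RNA, took 4.10% to 21.2% of all TPM in CBNE and 1.04% to 9.41% in PE. RNA was purified on RNeasy columns, which recover RNA of snRNA length poorly, so levels here are not the cellular amounts of snRNA.

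The snRNA genes together took 0.298% to 0.463% of all TPM in SNE, 0.139% to 0.305% in ME, 0.231% to 0.268% in CE and 0.280% to 0.364% in INPUT. In RPM (reads scaled to library depth, with no division by gene length) the order of SNE and CE turned round: SNE had 11.5 to 13.4, ME 13.2 to 34.6, CE 21.9 to 29.9 and INPUT 19.99 to 31.6. TPM weighs reads by gene length and the other scale does not, so levels are given on both scales below where they differ.

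Soluble nuclear extract was compared with cytoplasmic extract over the 3 days, the comparison that asks which snRNA genes lie with the nucleus. Of 20 U1, U4 and U5 genes without a P symbol 9 were called lower in SNE and none higher, and of 113 U6 P copies 51 were called higher and none lower. Of all 24735 genes tested, 35.4% were called higher and 9.56% lower in SNE (limma on log2(TPM + 1), Benjamini-Hochberg adjusted p under 0.05 and at least 1 log2 unit), with a median log2 fold change of 0.59. Of the 190 members 66 were called higher and 18 lower, with a median of 0.82. All 66 called higher were P copies.

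The 20 U1, U4 and U5 genes without a P symbol (2 RNU1, 11 RNVU1, 2 RNU4 and 5 RNU5) summed to 629, 865 and 1075 TPM (lowest, median, highest) in the 6 SNE libraries, against 1548, 1664 and 2042 TPM in the 6 CE libraries. In RPM they took 2.56 to 5.17 in SNE, against 15.0 to 23.5 in CE. Every SNE library lay below every CE library on both scales. Of these 20 genes 9 were called lower and none higher, and all 20 fold changes were below 0 (log2 -3.61 to -0.31, median -1.61). In 7 of them (RNVU1-6, RNVU1-7, RNVU1-18, RNVU1-22, RNVU1-29, RNVU1-31 and RNU5B-1) every SNE library was below every CE library, which was so for 10.6% of all genes. RNVU1-18 and RNVU1-29 carry the RNU1-1 sequence, and RNVU1-7 and RNVU1-31 differ from it by 1 and 2 substitutions. Only reads over a differing base can tell such genes apart, so they are not clearly separate measurements. In a fit on rebuilt reads (limma voom on the 24 CE, ME, SNE and INPUT libraries) all 20 were called lower, where 33.3% of all genes were.

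RNVU1-7, a U1 variant gene 99.4% identical to RNU1-1, had 8.05, 16.5 and 29.3 TPM (lowest, median, highest) in SNE, against 88.6, 112 and 134 TPM in CE. The groups did not overlap. Its log2 fold change was -2.79 ± 0.70 (SE, 6 libraries against 6; limma adjusted p = 0.00141). RNVU1-18, which carries the RNU1-1 sequence and shares its reads uncertainly with identical genes, had 0, 9.52 and 33.2 TPM in SNE against 60.4, 76.8 and 92.0 TPM in CE (log2 -3.61 ± 0.96). RNU5B-1, whose snRNA holds the exon ends together in the spliceosome, had 0, 13.3 and 31.3 TPM in SNE against 56.9, 70.6 and 107 TPM in CE (log2 -3.35 ± 1.00, limma adjusted p = 0.00542). Both genes were lower in every SNE library than in any CE library.

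Other U1 and U5 genes called lower were RNVU1-31 (log2 -3.23), RNU5A-1 (-2.95), RNU5F-1 (-2.78), RNVU1-24 (-1.86), RNVU1-22 (-1.85) and RNVU1-6 (-1.24). Copies moved with them: RNU1-28P, with the RNU1-1 sequence, fell by 3.39, RNU5A-8P by 3.74, RNU5E-4P by 2.03 and RNU2-63P by 1.52 on the log2 scale. A copy on chromosome 1 that the table names only U1 fell by 2.77.

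The most abundant U1 genes did not pass the test on the TPM scale. RNVU1-27 had 137, 179 and 242 TPM (lowest, median, highest) in SNE against 174, 224 and 323 TPM in CE, and these groups overlapped. Its log2 fold change was -0.33 ± 0.69 (limma adjusted p = 0.691). RNVU1-19 had 63.9, 123 and 185 TPM in SNE against 126, 153 and 239 TPM in CE (log2 -0.44), and RNVU1-15 had 48.6, 101 and 132 TPM in SNE against 90.0, 125 and 159 TPM in CE (log2 -0.36). The fit on rebuilt reads differs in scale and also leaves out the CBNE and PE libraries, and the part of each was not tested. In that fit all 3 were called lower, at log2 -1.68, -1.78 and -1.66, so for these genes the call depends on the fit. The same held for RNU4-1 (log2 -1.32 and, on reads, -2.44), RNU4-2 (-0.31 and -1.60), RNU5D-1 (-0.87 and -2.15), RNU5E-1 (-2.59 and -2.22), RNVU1-25 (-1.20 and -2.36), RNVU1-29 (-1.82 and -3.04), RNU1-1 (-1.23 and -1.65) and RNU1-3 (-1.41 and -1.56).

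**Figure D2:**
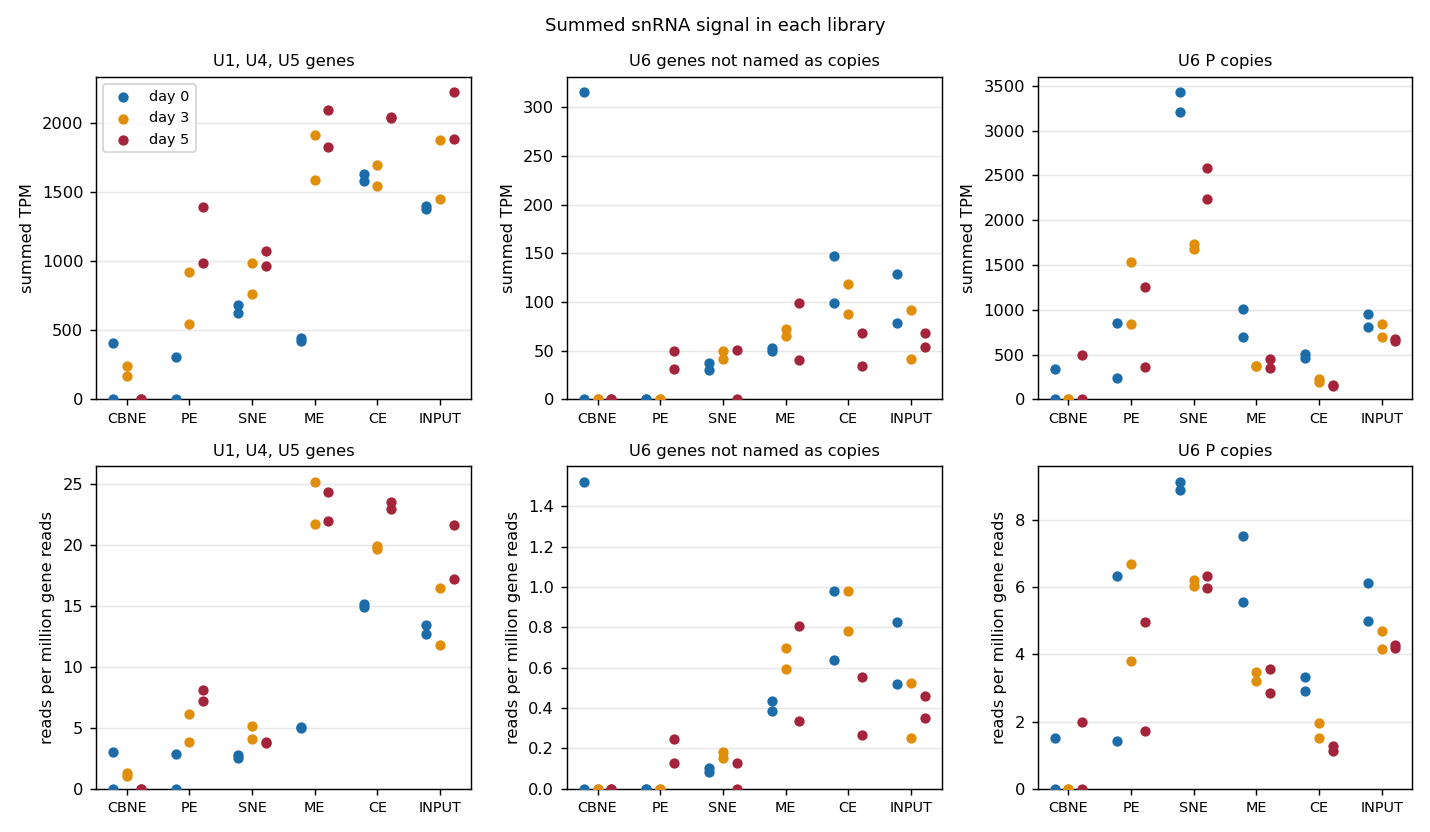
Summed TPM (top) and RPM of gene reads (bottom) in each of the 36 libraries for the 20 U1, U4 and U5 genes without a P symbol, the 5 such U6 genes and the 113 U6 P copies. Each point is a library, coloured by day; the 20 genes sit between 629 and 1075 TPM in SNE and between 1548 and 2042 TPM in CE, and the U6 P copies between 1680 and 3426 TPM in SNE and between 145 and 513 TPM in CE.

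The 113 U6 P copies summed to 1680, 2410 and 3426 TPM (lowest, median, highest) in SNE, against 145, 208 and 513 TPM in CE. In RPM they took 5.98 to 9.14 in SNE, against 1.13 to 3.32 in CE. The groups did not overlap on either scale. Of the 113 copies 51 were called higher in SNE and none lower, with a median log2 fold change of 1.40. A copy with most of its reads in SNE could become a member through SNE alone, so the sums and this count are a description. On rebuilt reads 13 of 24 were called higher and none lower, where 24.9% of all genes were called higher. With the median gene of each library set equal, which moved the median of all genes to -0.50, 21 of the 113 were called higher and 13 lower. In 11 copies every SNE library was above every CE library, against 35.3% of all genes.

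RNU6-705P, without the ACAGAGA box, had 326, 451 and 551 TPM (lowest, median, highest) in SNE, against 28.0, 62.2 and 127 TPM in CE. The lowest SNE library was above the highest CE library. Its log2 fold change was 2.90 ± 0.30 (limma adjusted p = 2.6e-08), and 1.54 on rebuilt reads. RNU6-1246P, which keeps the box, had 119, 191 and 960 TPM in SNE, against 0, 7.71 and 41.1 TPM in CE (log2 5.33 ± 0.98, and 3.23 on rebuilt reads). RNU6-367P had 32.1, 136 and 185 TPM in SNE, against 0, 8.25 and 22.6 TPM in CE (log2 4.28 ± 0.54). All SNE libraries were above all CE libraries for each of these genes.

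Smaller read numbers lay behind the other copies with large fold changes. RNU6-562P, on chromosome X, had 27 reads in SNE and 2 in CE (log2 4.83), as did RNU6-207P, in an intron of IL1RAPL2 on the opposite strand (log2 4.82). RNU6-531P, in an intron of ELF2 on the opposite strand, had 18 reads in SNE and 2 in CE (log2 4.41). RNU6-1163P had 13 in SNE and 1 in CE (log2 4.35).

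The 5 U6 genes without a P symbol were lower in SNE or did not pass the test. They summed to 0, 39.3 and 50.9 TPM (lowest, median, highest) in SNE, against 34.0, 93.4 and 148 TPM in CE, and the groups overlapped. RNU6-8, 99.1% identical to RNU6-1, had 0, 12.4 and 33.9 TPM in SNE against 20.4, 35.2 and 46.3 TPM in CE (log2 -2.19 ± 0.65, limma adjusted p = 0.00539). RNU6-2, with the RNU6-1 sequence, had 9 reads in SNE and 41 in CE (log2 -2.20), and its call was made only on rebuilt reads (-2.44). RNU6-7 and RNU6-9 were also called lower, on 3 reads each. RNU6-7 had reads in CE alone and RNU6-9 in CE and INPUT. The CE libraries were enough to make both genes members, so these calls are a description. RNU6-1 had 2 reads in all, neither of them in SNE or CE.

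**Figure D3:**
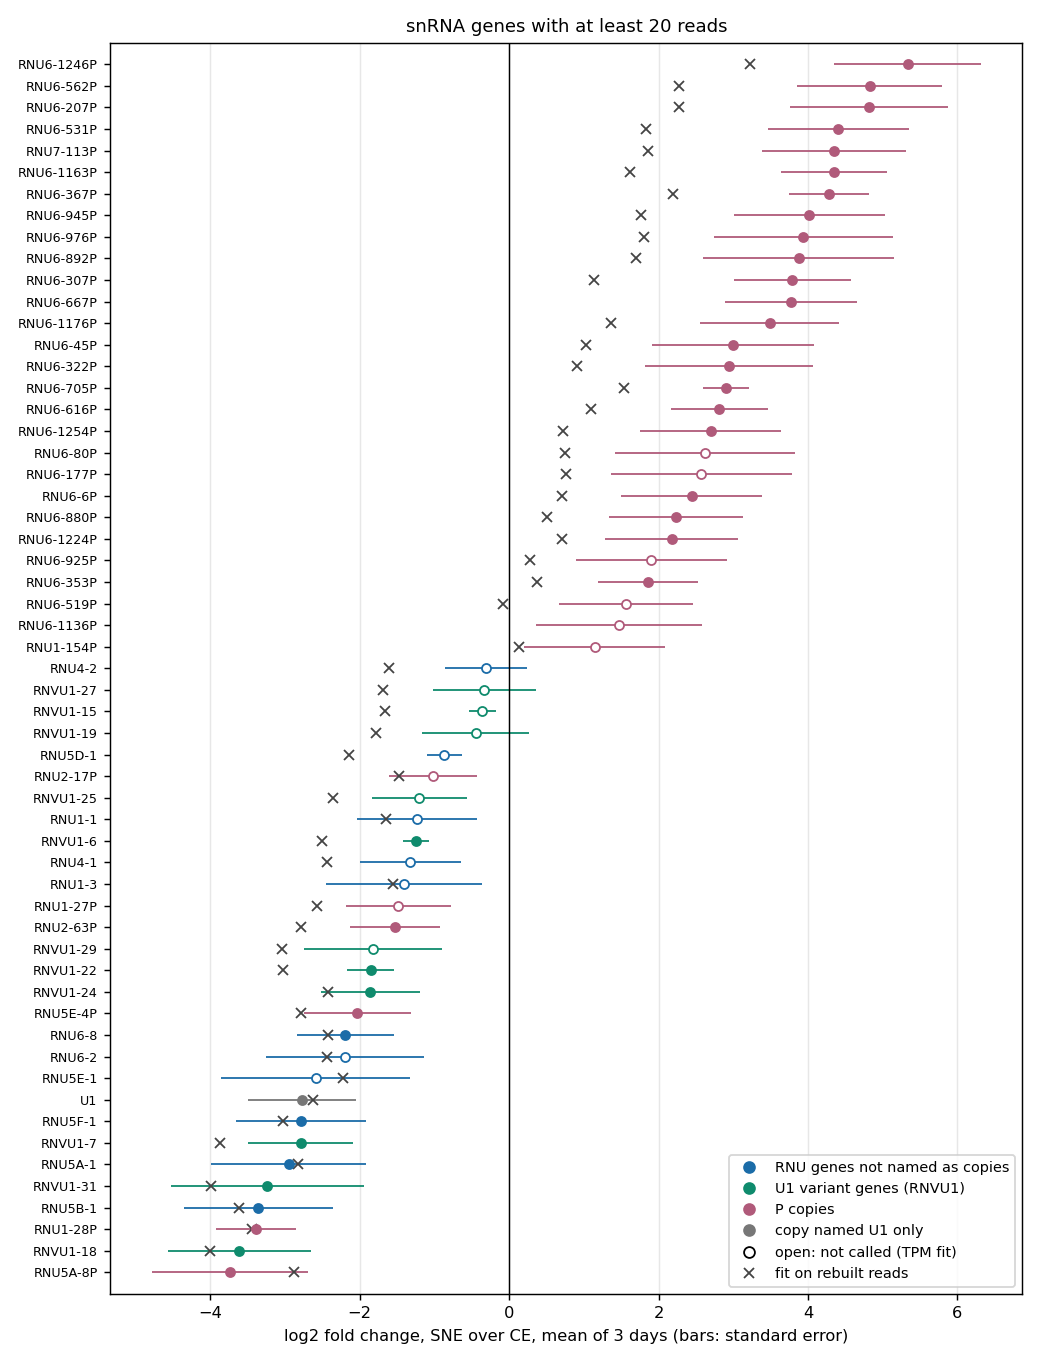
Log2 fold change of SNE over CE (mean of the 3 days, 6 libraries each, bars are standard errors) for the members with at least 20 reads (which SNE alone can supply), ordered by size. Filled points passed the test on log2(TPM + 1), open points did not, and crosses give the fit on rebuilt reads; U6 copies fill the upper end up to 5.33 and U1 and U5 genes the lower end.

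U7 and minor spliceosome members were mostly seen in few reads. RNU7-113P, a copy of 62 bases at chr2:20246326-20246387, had 77.6, 124 and 146 TPM (lowest, median, highest) in SNE, against 0, 11.6 and 14.2 TPM in CE. All its SNE libraries were above all CE libraries (log2 4.35 ± 0.97, limma adjusted p = 0.000459). Of the 11 U7 members 5 were called higher and none lower, and of the 10 minor spliceosome members 3 were called higher, all U6atac copies, and none lower, where 35.4% of all genes were called higher and 9.56% lower. RNU11 had 1 read in SNE and 1 in CE (log2 0.13, not called).

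Other short genes served as a yardstick for these counts. Of the small nucleolar RNA genes tested, 15 of 51 were called higher in SNE and 2 lower, and of 1815 other single-exon genes of up to 500 bases, 512 were called higher and 205 lower. On rebuilt reads 4 of 15 small nucleolar RNA genes were higher and 6 lower, and 218 of 682 of the other short genes were higher and 243 lower. Among U6 P copies that overlap no gene, 12 of 24 with an expressed gene ending within 10 kb upstream were called higher, and 26 of 60 of the others.

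In the membrane extract few snRNA genes were called against the cytoplasmic extract averaged over the 3 days. Of the 190 members 6 were called higher and 4 lower in ME, where 1.19% and 11.9% of all genes were. Of the 20 U1, U4 and U5 genes 1 was called lower (RNVU1-22, log2 -1.36 ± 0.31) and none higher. Their fold changes were below 0 in 19 of the 20. On rebuilt reads 4 of the 20 were called lower and none higher, where 14.6% and 13.6% of all genes were. Of the 113 U6 P copies 2 were called higher and none lower: RNU6-307P (21 reads, log2 2.09) and RNU6-523P (11 reads), which had 5 reads in ME and none in CE. On rebuilt reads 8 of the 24 U6 P copies with enough reads were called higher and none lower, where 13.6% of all genes were called higher and 14.6% lower. RNU1-28P was called lower (log2 -1.52), and the other calls rested on 2 to 16 reads each.

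The days were unlike each other. The 20 U1, U4 and U5 genes summed to 433 ± 14.1 TPM in ME on day 0 (SD, n = 2), 1752 ± 231 TPM on day 3 and 1963 ± 189 TPM on day 5. In CE they summed to 1607 ± 35.9, 1621 ± 104 and 2040 ± 2.54 TPM on the same days. ME thus stood far below CE on day 0 and near it on days 3 and 5. In RPM ME had 5.04, 23.5 and 23.2 on days 0, 3 and 5, and CE had 15.1, 19.8 and 23.2.

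The change of the ME to CE difference was tested per gene for day 3 and for day 5 against day 0, 2 tests that share the day 0 libraries and were added after the data had been seen. It was above 0 in 18 of the 20 genes on each day. On day 3, 3 of the 20 were called higher and none lower, and on day 5, 4 were called higher and none lower, where 3.44% and 3.24% of all genes were called higher and 0.19% and 0.194% lower. On rebuilt reads 11 and 9 of the 20 were called higher, where 7.3% and 5.3% of all genes were higher and 1.22% and 1.15% lower.

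RNVU1-15 had 34.1 and 42.9 TPM in ME on day 0, 222 and 125 TPM on day 3, and 234 and 350 TPM on day 5. In CE it had 144 and 123 TPM on day 0, 97.2 and 90.0 TPM on day 3, and 127 and 159 TPM on day 5. ME was below CE on day 0 and above it on both later days, without overlap on days 0, 3 or 5. The ME to CE difference of RNVU1-15 rose by 2.60 ± 0.45 log2 units on day 3 and 2.78 ± 0.45 on day 5 (limma adjusted p = 0.000727 and 0.00042).

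RNVU1-6, a U1 variant gene with ACTTACCT, had 40.1 and 16.2 TPM in ME on day 0, 121 and 118 TPM on day 3, and 98.2 and 130 TPM on day 5. In CE it had 102 and 119, 63.3 and 108, and 88.7 and 93.1 TPM on these days. Its libraries followed the order of RNVU1-15 (2.59 and 2.38 log2 units). RNU5D-1 had 24.3 and 22.9 TPM in ME on day 0, 137 and 155 TPM on day 3, and 120 and 275 TPM on day 5, and in CE 152 and 110, 122 and 165, and 209 and 188 TPM. For RNU5D-1 ME was below CE on day 0 and overlapped it later (2.45 and 2.28 log2 units). RNVU1-22 was called on day 5 only (2.80 log2 units).

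Mitochondrial transcripts moved with this result: they took 59.6% to 61.4% of all TPM in ME on day 0, 47.7% to 54.7% on day 3 and 46.6% to 48.1% on day 5, against 1.40% to 1.86% in CE. Transcripts used as cytoplasmic markers moved with it too: GAPDH averaged 997, 2171 and 2038 TPM in ME on days 0, 3 and 5, against 6792, 7742 and 7307 TPM in CE. RPL15 averaged 214, 369 and 391 TPM in ME, against 1330, 1477 and 1546 TPM in CE, and RPS3A 331, 446 and 468 TPM in ME, against 1854, 2129 and 2091 TPM in CE. The part of these transcripts in the result was not tested. With totals taken without mitochondrial and structured RNA, the change for RNVU1-15 was 2.31 and 2.39 log2 units. The U6 P copies summed to 855 ± 223, 371 ± 0.551 and 402 ± 69.6 TPM in ME on days 0, 3 and 5, and to 486 ± 37.5, 208 ± 24.6 and 153 ± 10.9 TPM in CE. In the change of the ME to CE difference none of the 113 was called higher on day 3 or day 5 and 1 was called lower, on day 5; on rebuilt reads 1 of 24 was lower on day 3 and 1 higher on day 5.

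**Figure D4:**
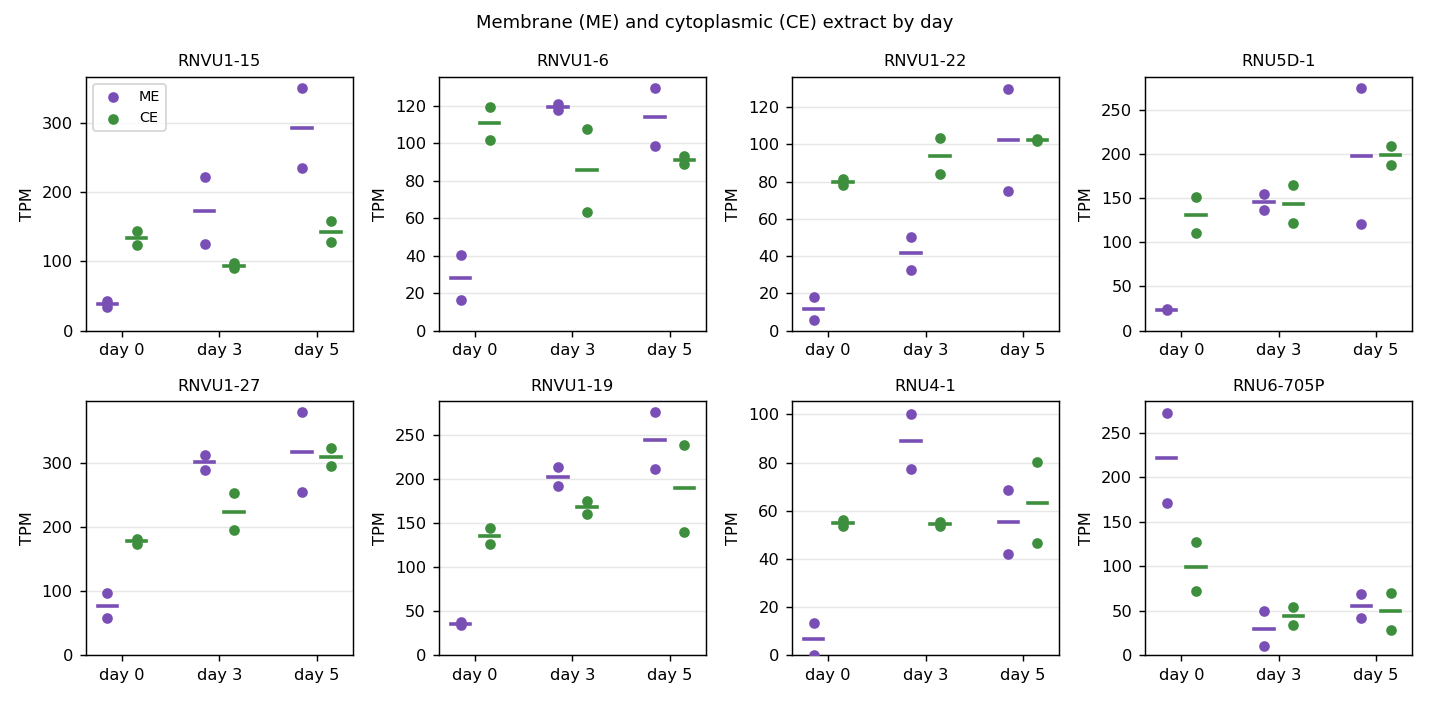
TPM of 8 snRNA genes in the 2 ME and the 2 CE libraries of each day; points are libraries and bars their mean. For RNVU1-15 the ME points lie at 34.1 and 42.9 TPM on day 0, below CE, and at 234 and 350 TPM on day 5, above CE, whereas RNU6-705P shows its highest ME values on day 0.

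In the chromatin-bound extract snRNA reads were few. Of the 190 members 98 were called lower than in SNE and none higher, where 41.8% and 7.84% of all genes were. Of 1815 other single-exon genes of up to 500 bases, 811 were called lower and 29 higher. On the log2(TPM + 1) scale a shallow library without a read counts as 0. Members could also pass the rule through SNE alone, which can raise the SNE level. The count of 98 and the comparisons with that level below are therefore a description. The 6 CBNE libraries held 11 member reads in all, between 0 and 4 each, whereas 93.2 would be read at the TPM of the SNE libraries of the same day (exact 95% Poisson interval of the 11: 5.49 to 19.7, counting error only). The U6 P copies had 2 reads, against 51.7 at the SNE level. The 20 U1, U4 and U5 genes had 6 reads, against 28.9 at that level, 4 of them from RNVU1-31. RNU6-705P had no CBNE read, against 326 to 551 TPM in SNE. CBNE libraries were shallow and rich in SNORD3A, and the part of either in this difference was not tested.

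In the pellet extract the U6 P copies had fewer reads than at the SNE level, and most reads of the U1, U4 and U5 genes came from day 5. Of the members 78 were called lower than in SNE and 1 higher, where 29.1% and 4.49% of all genes were. Of 1815 other single-exon genes of up to 500 bases, 585 were called lower and 30 higher. Members could pass the rule through SNE alone, which can raise the SNE level. The count of 78 and the comparisons of the U6 P copies with SNE here are therefore a description. On the log2(TPM + 1) scale, where a shallow library without a read counts as 0, 10 of the 20 U1, U4 and U5 genes and 52 of the 113 U6 P copies were called lower. Summed over libraries, the 20 U1, U4 and U5 genes had 129 reads in PE, with an interval of 108 to 153, against 122 at the SNE level. By day they had 2, 34 and 93 reads on days 0, 3 and 5 (intervals 0.242 to 7.22, 23.5 to 47.5 and 75.1 to 114), against 7.35, 38.9 and 75.4. The day 0 interval ended just below the SNE level. That level is itself estimated from reads, and its counting error is not covered. These values therefore do not settle whether the days differed. The U6 P copies had 86 reads, with an interval of 68.8 to 106, against 199 at that level. The 6 members of the RNU1-1 sequence had 29 reads (19.4 to 41.6), against 15.1. Most PE reads came from day 5: day 0, day 3 and day 5 gave 8, 85 and 168 member reads. RNU1-28P was the gene called higher (log2 1.38 ± 0.54), with 0, 36.5 and 44.2 TPM (lowest, median, highest) in PE and 0, 4.07 and 53.9 TPM in SNE, on 5 and 9 reads. On days 0 and 3 alone its value was -0.55.

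**Figure D5:**
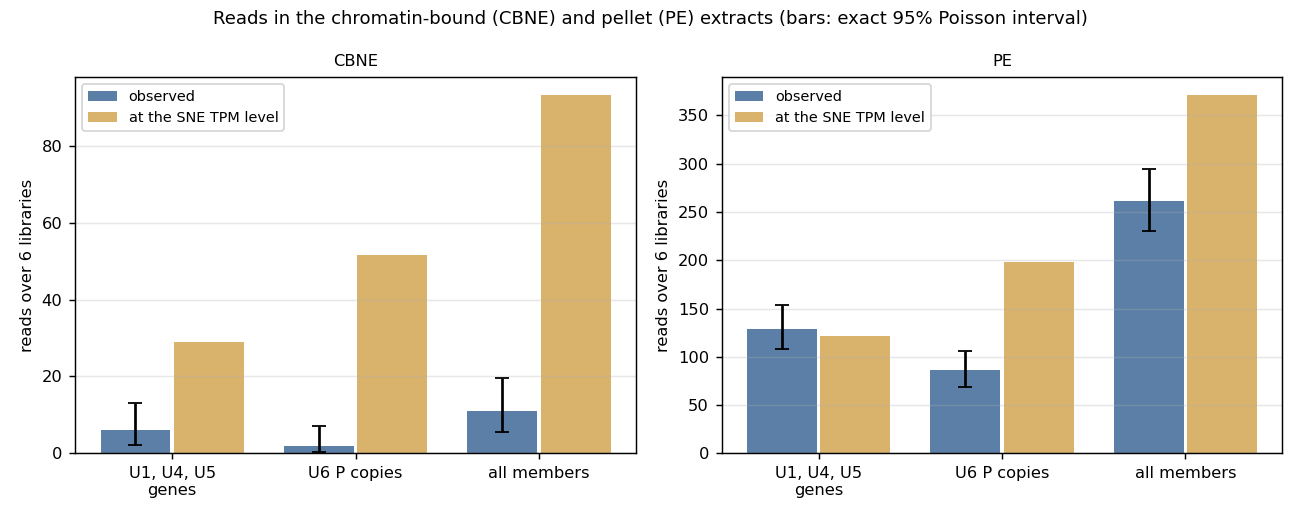
Reads observed over the 6 CBNE libraries (left) and the 6 PE libraries (right), with exact 95% Poisson intervals, beside the reads that the SNE TPM level of the same day would give. In CBNE the observed 11 member reads stand beside 93.2, and in PE the 129 reads of the 20 U1, U4 and U5 genes stand beside 122. Members could pass the rule through SNE alone, which can raise the SNE level.

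Few snRNA genes were called between days in unfractionated RNA. In INPUT, 2 members were called higher and 5 lower on day 3 against day 0, where 4.06% and 3.38% of all genes were, and 4 higher and 6 lower on day 5, where 6.15% and 6.67% were. Both tests share the day 0 libraries. On rebuilt reads 2 members were called on day 3 and 9 on day 5, against 1 and 2 of the same genes on the TPM scale. The median member had 7 reads over all libraries and 105 members had under 10, so few calls do not show little change. Of the 20 U1, U4 and U5 genes none was called on either day by limma (1 on each day at an unadjusted p under 0.05; on rebuilt reads none on day 3, where 8.33% of all genes were higher and 13.0% lower, and 3 higher on day 5, where 12.5% were higher and 16.0% lower). In such bulk RNA, fewer cells that use a gene and less RNA per cell cannot be told apart. The U1 family summed to 1155 ± 6.04 TPM on day 0, 1307 ± 211 TPM on day 3 and 1693 ± 254 TPM on day 5 (SD, n = 2 each).

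RNU6-616P, on chromosome X, was the member with the most reads among those called. It had 46.9 and 21.5 TPM in INPUT on day 0 and was at 0 in all 4 INPUT libraries of days 3 and 5. Its fitted log2 fold change was -5.03 on both days (limma adjusted p = 0.00307 and 0.00189), and -2.998 and -2.76 on rebuilt reads; fitted against libraries at 0, these values are no bound on the fold. In SNE it had 162 and 210 TPM on day 0, 0 and 12.3 TPM on day 3, and 16.7 and 17.0 TPM on day 5. The day 0 SNE libraries stood apart from the later ones in the same direction.

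The other genes named in this comparison rested on few reads over all libraries. RNU6-523P (11 reads, -4.94 on both days), RNU6-1274P (14 reads, -3.82 on both days) and RNU6-742P (7 reads, -3.81 on both days) were lower. All reads of RNU6-1274P and RNU6-742P, and all but 1 of RNU6-523P, lay in day 0 libraries. These genes became members through day 0, where they are high, so their values are a description. RNU6-353P fell by 3.80 on day 5 (24 reads). RNU6-785P was higher on day 3 (12 reads, 3.93), and RNU6-667P (20 reads, 4.78) and RNU7-190P (4 reads, 4.25) on day 5. RNU7-190P had a read in both INPUT libraries of day 5, which was enough for membership, so its value is a description. RNU6-9 was called lower on both days (-1.51) on a single INPUT read. All its reads lay on day 0, so this call is a description too.

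The SNE to CE difference of the 20 U1, U4 and U5 genes did not pass the test for a change on day 3 or day 5, with 0 called by limma on either day on the TPM scale and on rebuilt reads (2 on day 3 and 0 on day 5 at an unadjusted p under 0.05). On rebuilt reads 9.34% of all genes were higher and 0.934% lower on day 3, and 6.38% and 3.6% on day 5. Over all members 1 was called higher and 4 lower on day 3, where 2.44% and 1.32% of all genes were, and 10 higher and 7 lower on day 5, where 5.63% and 1.53% were. RNU6-367P was the only one of these calls with at least 20 reads. It had 93.3 and 32.1 TPM in SNE on day 0, 147 and 185 TPM on day 3, and 125 and 181 TPM on day 5. In CE it had 17.6 and 22.6, 9.43 and 7.07, and 0 and 0 TPM on these days. SNE was above CE on every day, and the gap on day 5 was 5.83 ± 1.32 log2 units wider than on day 0 (limma adjusted p = 0.00466; 3.59 on rebuilt reads), a fitted value that rests on the zeros in CE.

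PolyA RNA of day 0 gave a second measurement of nucleus and cytoplasm, from other libraries. It held reads of 61 of the 190 members, 169 and 160 reads in the nuclear libraries against 41 and 52 in the cytoplasmic ones. Both nuclear libraries had more than either cytoplasmic one. Of the 33 members that could be tested 20 were called higher in the nucleus and none lower, where 30.0% and 6.22% of all 16667 genes were. A member without a cytoplasmic read could enter the test through the nuclear libraries alone: 6 of the 33 had none, and all 6 were called higher. Of the other 27, with at least 1 cytoplasmic read, 14 were called higher. A read in each nuclear library was enough to enter, whatever the cytoplasm held, as in RNU6-705P. Both counts are therefore a description. Among the 20 were 10 of 15 U6 P copies and 4 of 10 U1, U4 and U5 genes.

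RNU6-616P had 26 and 34 reads in nuclear polyA RNA, against 7 and 5 in cytoplasmic polyA RNA (log2 2.80 ± 0.20, limma adjusted p = 0.000167). RNU6-705P had 10 and 7 reads in the nucleus, against 1 and 0 in the cytoplasm (log2 4.00 ± 0.63). In both genes each nuclear library was above each cytoplasmic one, as in RNU6-945P (4 and 8 against 1 and 0) and RNU6-8 (7 and 4 against 0 and 1). RNU6-8, RNVU1-6 (log2 1.44), RNVU1-7 (1.63) and RNVU1-22 (2.23) were called higher in nuclear than in cytoplasmic polyA RNA and lower in SNE than in CE. PolyA reads were few: 9 nuclear and 4 cytoplasmic for RNVU1-6, 4 and 1 for RNVU1-7, and 6 and 1 for RNVU1-22. Under other settings the polyA call held in 8 of 10 for RNVU1-6, 2 of 9 for RNVU1-7 and 6 of 9 for RNVU1-22. Most snRNAs lack a polyA tail, so polyA and total RNA need not measure the same transcripts. Of the 10 U1, U4 and U5 genes tested in polyA RNA 9 had a fold change above 0, whereas in SNE against CE all 20 were below 0. RNU1-21P had 5 and 5 nuclear reads and no cytoplasmic read. RNU4-2 and RNU7-113P were called higher on 1 read in each nuclear library.

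Messenger RNAs for the proteins that make and carry snRNAs were read from lists of the pathway. Over all genes 35.4% were higher and 9.56% lower in SNE than in CE (24.9% and 33.3% on rebuilt reads), and 11.9% were lower in ME than in CE. For the Sm and LSm ring, 1 of 14 genes tested was higher and 9 lower in SNE than in CE. SNRPD2, of the Sm core, fell by 3.47 and LSM4 by 2.48 log2 units, and SNRPN rose by 2.53. For proteins of the major snRNPs 2 of 31 were higher and 9 lower, SF3B5 of the U2 particle lowest at -4.10, and for the minor spliceosome 3 of 11 were higher and 2 lower, RNPC3 highest at 3.08. On rebuilt reads 25 of the 31 were lower and none higher, and 6 of the 11 were lower and 1 higher. Of the U7 list 1 of 4 was lower (LSM10, -2.04).

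For snRNA transcription and 3′ cleavage 13 of 23 genes were higher and 2 lower in SNE. On rebuilt reads 2 were higher and 6 lower, so the balance of this list turned with the fit. INTS6, of the Integrator complex that cleaves snRNA transcripts, rose by 2.68, and POU2F1, which binds snRNA promoters, by 2.39, and both rose on rebuilt reads too (1.42 and 1.10). SNAPC2, of the snRNA activating complex, fell by 2.68. For export and assembly 3 of 24 were higher and 4 lower, and on rebuilt reads none was higher and 14 were lower. PRMT5, which methylates Sm proteins, fell by 1.65, and GEMIN6 of the SMN complex by 1.58. In ME against CE no gene of these lists was higher, and 12 of 14, 18 of 31, 3 of 11, 2 of 4, 3 of 23 and 7 of 24 were lower in the order given here. In INPUT no gene of these lists was called by limma on day 3 or day 5, and 9 and 27 of 107 had an unadjusted p under 0.05.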

How the data were processed

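Total RNA and polyA RNA were sequenced, and the authors deposited TPM values per gene and library. The submitters' processing notes name HISAT2 2.0.5, GATK, featureCounts 1.6.2, Salmon 1.3.0 and hg38, without their roles, and library strandedness is not given in the sources used here. In the total RNA table TPM times gene span gave whole reads (within 0.01) for 99.5% to 99.8% of single-transcript genes, and in the polyA table TPM times exon length did for 99.4% to 99.5%, so reads were rebuilt from these steps. Depth was 0.380 to 28.5 M gene reads in total RNA and 14.4 to 17.3 M in polyA RNA. The total RNA values of genes with introns are therefore per length of the whole gene.

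Groups came from the labels. Genes that reached 1 TPM in 2 or more libraries entered a test with limma 3.58.1 (R 4.3.3, trend and robust) on log2(TPM + 1), with all 18 groups sharing 1 estimate of spread, and p-values adjusted by Benjamini-Hochberg over all genes. For these short genes a few reads could give a large fold change on this scale, because 1 read on the length of U6 equals 6.61 TPM or more. Groups at 0 in both libraries add no spread. RNU7-141P thus reached 4.91 log2 units with a standard error of 0.127 on 2 reads (SNE to CE change, day 5). A call needs an adjusted p under 0.05 and a log2 fold change of at least 1 in size. The fit on rebuilt reads used limma voom on 24 libraries and genes with at least 20 reads and was added after seeing the data. Alternatives covered the pseudocount, the filter, the scaling, days, a replicate block and leaving out each library. Poisson intervals (95%) cover counting error only. The scripts were tested on simulated data.

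The members and gene lists were chosen with earlier results of these data known. Named by rule were the members without a P symbol, among the copies the 10 with the highest mean TPM and the 5 with the largest called change in each comparison, and the 3 list genes with the largest called change in each list. Other copies named in the text were chosen after their values were seen. Sequences and positions are of GENCODE 29 on GRCh38, and the sequences of some members are not reported here.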

Additional observations from a re-analysis of the deposited data

Results flagged for a closer look

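Each result here was picked because the difference between days was itself tested, as an interaction in limma, and passed. In the ME to CE difference, day 3 against day 0 differed by 2.45 log2 units in RNU5D-1, 2.59 in RNVU1-6, 2.60 in RNVU1-15 and 3.11 in RNU6-9. Day 5 against day 0 differed by 2.28 in RNU5D-1, 2.38 in RNVU1-6, 2.78 in RNVU1-15, 2.80 in RNVU1-22 and 3.11 in RNU6-9. The RNU6-9 values rest on 3 reads, and the 4 U1 and U5 genes on 260 to 564 reads. RNU6-9 had reads in both CE libraries of day 0, which was enough for membership, so its values are a description.

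In the SNE to CE difference, day 3 against day 0 differed by -4.35 in RNU6-742P, -4.35 in RNU6-12P, -3.88 in RNU6-1175P, -3.88 in RNU6-567P and 3.11 in RNU6-9. Day 5 against day 0 differed by -5.88 in RNU7-133P, -5.42 in RNU6-495P, -4.99 in RNU6-1220P, -4.35 in RNU6-742P, -4.35 in RNU6-12P and -3.88 in RNU6-567P. It differed by 3.11 in RNU6-9, 4.91 in RNU7-141P and 5.83 in RNU6-367P. RNU6-367P had 97 reads, and the others had 2 to 10 reads each. The 2 reads of RNU7-141P lay in SNE on day 5 and the 2 of RNU6-567P in SNE on day 0, so these genes became members through the group where they are high, and their values are a description. RNU6-742P, RNU6-12P, RNU6-1175P, RNU6-495P, RNU6-1220P and RNU7-133P had reads in both SNE libraries of day 0, which was enough for membership. RNU6-9 had reads in both CE libraries of day 0. The values of all these genes are a description too. The day 3 and day 5 tests share the day 0 libraries.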

How the results depend on the processing

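Calls over the 190 members moved by over 1.5 times under some settings, and the cause was not tested except where fewer genes entered. SNE against CE gave 66 higher calls, with 22 among members of at least 20 reads, 34 with a pseudocount of 10 and 28 with a common median, and 18 lower calls, with 51 under a common median and 29 on rebuilt reads (15 over the same genes). ME against CE gave 10 calls, with 2 at pseudocount 10, 21 with totals without mitochondrial and structured RNA and 13 on rebuilt reads (3 over the same genes). CBNE against SNE gave 98 calls, with 59 at pseudocount 10 and 65 with a common median, and PE against SNE 79, with 41 and 52. INPUT gave 7 calls on day 3 (4 at pseudocount 10) and 10 on day 5 (5). On rebuilt reads it gave 2 and 9, against 1 and 2 over the same genes. The SNE to CE change on day 3 gave 5 (9 at pseudocount 10) and 1 on rebuilt reads, against 0 over the same genes. The ME to CE change gave 5 on day 3 (9 with the new totals) and 8 on day 5, and on rebuilt reads 14 and 11, against 3 and 4 over the same genes. PolyA gave 20 (9 at pseudocount 10, 11 with a 5 TPM filter). Among the named genes with a call, signs changed in 4 values: in CBNE against SNE with a common median RNU6-742P (0.12), RNU6-12P (0.13) and RNU6-567P (0.28), and in PE against SNE on days 0 and 3 alone RNU1-28P (-0.55).

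Leaving out 1 library gave 55 to 70 higher and 15 to 20 lower for SNE against CE, 6 to 12 for ME against CE (6 without CE day 5 replicate 1), 96 to 106 for CBNE and 72 to 86 for PE. It gave 6 to 11 for INPUT day 3 (11 without INPUT day 0 replicate 1), 10 to 18 for day 5 (18 without SNE day 3 replicate 2) and 15 to 23 for polyA. The SNE to CE change gave 4 to 16 on day 3 (16 without SNE day 0 replicate 1) and 13 to 23 on day 5. The ME to CE change gave 4 to 10 on day 3 (10 without ME day 3 replicate 2) and 4 to 10 on day 5 (4 without CE day 0 replicate 1, 10 without INPUT day 0 replicate 1).

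Same-number correlations did not all exceed 0.1, so the numbers were not taken as pairs: 1 of 15 did on day 0, 2 of 15 on day 3 and 8 of 15 on day 5 (-0.30 to 0.43 over the 45). SNE and INPUT exceeded it on all 3 days. The replicate block gave 70 higher and 19 lower for SNE against CE, 10 for ME, 103 for CBNE, 83 for PE, 7 and 11 for INPUT, 5 and 16 for the SNE to CE change, 5 and 8 for the ME to CE change, and 15 for polyA. CBNE and PE depth limits single genes there to a few reads.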
